A study of Macaca mulatta with 10 samples.

Results

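The cytosolic ribosomal protein (RP) genes encode the proteins that, with ribosomal RNA, build the small and the large subunit of the ribosome. They were taken from the deposited table of read counts by symbol alone: RPS or RPL followed by a number, with or without a final A, X or L (and, for RPL, a digit after it), together with RPLP0, RPLP1, RPLP2 and RPSA, and without the kinases of RPS6. The table held 84 such genes among 26484, of which 31 encode small-subunit proteins, 46 large-subunit proteins and 7 are paralogs of other members (RPL3L, RPL10L, RPL22L1, RPL26L1, RPL39L, RPL7L1 and RPS27L). Every member had at least 1 count in at least 1 library. FAU and GNB2L1 (the gene now called RACK1), which also encode ribosomal proteins, fall outside the pattern of symbols and are described with the other translation genes.

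The subunits are assembled in the nucleolus from ribosomal RNA and near-equal amounts of each protein, and RP messenger RNAs are among the most abundant of a growing or activated lymphocyte. Most of them start with a run of pyrimidines at the cap (a TOP motif), through which the kinase mTOR sets how strongly they are translated. Rapamycin, which blocks mTOR, was part of the early treatment of every monkey here.

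RNA was sequenced from type 1 regulatory (Tr1) cells of rhesus macaques (Macaca mulatta) that had been made diabetic with streptozotocin and had received islet allografts from donors matched for one DRB allele. Both cohorts received the same transient immunosuppression, which combined an antagonistic antibody to CD40, rapamycin, tocilizumab against the interleukin-6 receptor and etanercept against tumor necrosis factor. The 5 monkeys of Cohort C also received apoptotic donor leukocytes (ADLs), donor white cells fixed with a carbodiimide, and the 5 monkeys of Cohort B did not. Blood mononuclear cells, taken on the day of sacrifice by the labels, were frozen, thawed, rested overnight and sorted for CD4, CD49b and LAG-3, and each monkey gave 1 library. The labels set the day of sampling at 365 for Cohort C and at rejection for Cohort B. Not every monkey of Cohort B had rejected its graft by the study's own account, which also describes the monkey of 15CP1 in Cohort C, the deepest library, as followed for longer than that day. The time of sampling and ADL treatment cannot be told apart. The labels give no ages.

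Library totals ran from 6076 counts (monkey 14HP31, Cohort B) to 5895609 (15CP1, Cohort C). They exceeded 1000000 in 13EP12 and 13EP8 of Cohort B and in 13EP5 and 15CP1 of Cohort C, called the 4 deep libraries here, and fell under 100000 in 14HP31 and in 15CP4 of Cohort C. In the 4 deep libraries all 9 measured T cell markers (CD3D, CD3E, CD3G, CD247, CD2, CD4, IL7R, CD5 and LCK) had counts, and in the other 6 only 0 to 5 of the 9 did, with CD3D at 0 in all but 15CP6. The genes of the sorted surface proteins, ITGA2 (CD49b) and LAG3, summed to 35 counts in 13EP12, 2 in 13EP8, 20 in 13EP5 and 49 in 15CP1, and were both at 0 in the other 6 libraries. The 7 monocyte markers summed to as much as 1182 CPM (counts per 1000000 counts of the library) in Cohort B and 1093 in Cohort C, and to 0 in at least 1 library of each. RNA from other cells can add to RP counts, since all cells express these genes, and its part in the values below was not tested. In sorted bulk RNA, fewer cells and less RNA per cell cannot be told apart.

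The first question was how much of each library the RP genes filled. In Cohort B they took 3.42% of the counts in 13EP12, 4.04% in 13EP8, 0.385% in 14HP26, 0.724% in 14HP31 and 1.95% in 15CP6. In Cohort C they took 4.36% in 13EP5, 0.0615% in 14HP33, 1.74% in 14HP24, 4.03% in 15CP1 and 0.421% in 15CP4. Both cohorts thus held deep libraries near 4% and others far below, and they overlapped over almost their whole range. The medians were 1.95% in Cohort B and 1.74% in Cohort C, and the means were 2.11% ± 1.61 (SD, n = 5) and 2.12% ± 1.996 (SD, n = 5). Counting error was small beside these differences, with a 95% Wilson interval of 0.540% to 0.971% in 14HP31, the widest, and of 0.0568% to 0.0667% in 14HP33.

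The RP share separated the 4 deep libraries from the other 6, but not the cohorts. It lay between 3.42% and 4.36% in the 4 deep libraries and between 0.0615% and 1.95% in the other 6. The MTRNR2L genes, whose sequences resemble mitochondrial ribosomal RNA, moved the other way. They took 3.09% to 3.90% of the counts in the 4 deep libraries and 15.6% to 87.0% in the other 6, with the 87.0% in 14HP33, the library of the lowest RP share. Taking the MTRNR2L genes out of the totals left shares of 3.53% to 4.51% in the 4 deep libraries and 0.472% to 2.57% in the other 6, which still did not overlap. In 14HP33 the share then was 0.472%, and in 15CP4 0.744%. What else the other 6 libraries held in place of RP counts was not tested.

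**Figure D1:**
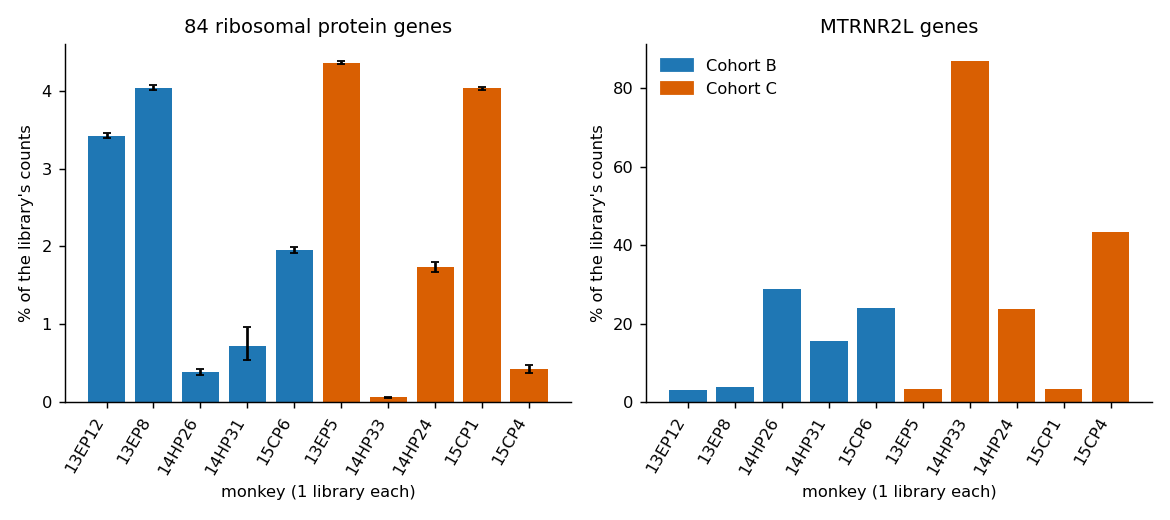
Percent of each library's counts on the 84 ribosomal protein genes (left, with 95% Wilson intervals that cover counting error only) and on the MTRNR2L genes (right), for the 5 monkeys of Cohort B and the 5 of Cohort C. The 4 libraries with RP shares between 3.42% and 4.36% are those with MTRNR2L shares under 4%, and both cohorts hold 2 of them.

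The number of RP genes with at least 1 count followed the same division. In Cohort B, 73 of the 84 members were detected in 13EP12, 74 in 13EP8, 27 in 14HP26, 19 in 14HP31 and 58 in 15CP6. In Cohort C, 78 were detected in 13EP5, 29 in 14HP33, 50 in 14HP24, 83 in 15CP1 and 12 in 15CP4. The medians were 58 and 50, and the cohorts overlapped. Depth did not order the libraries on its own: 14HP33, with 968423 counts, showed 29 members, while 14HP24, with 136954 counts, showed 50. With a limit of more than 3 counts the numbers were 70, 73, 21, 1 and 53 in Cohort B and 76, 13, 48, 79 and 4 in Cohort C, so that in 14HP31 all but 1 of the detected members rested on 1 to 3 counts.

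At equal depth the 6 libraries other than the deep ones did not become alike. If 6076 counts, the total of 14HP31, had been drawn from every library, 52.3 to 58.4 members would be expected in the 4 deep libraries, 37.6 in 15CP6, 34.1 in 14HP24, 19 in 14HP31 as observed, 11.3 in 14HP26, 5.11 in 15CP4 and 2.98 in 14HP33. When only RP counts were drawn, down to the 44 RP counts of 14HP31, 27.9 to 29.5 members would be expected in the 4 deep libraries, 25.4 in 15CP6 and 23.1 in 14HP24, but 15.3 in 14HP26, 11.9 in 14HP33 and 5.88 in 15CP4. The last 3 libraries thus spread the same number of RP counts over fewer genes.

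**Figure D2:**
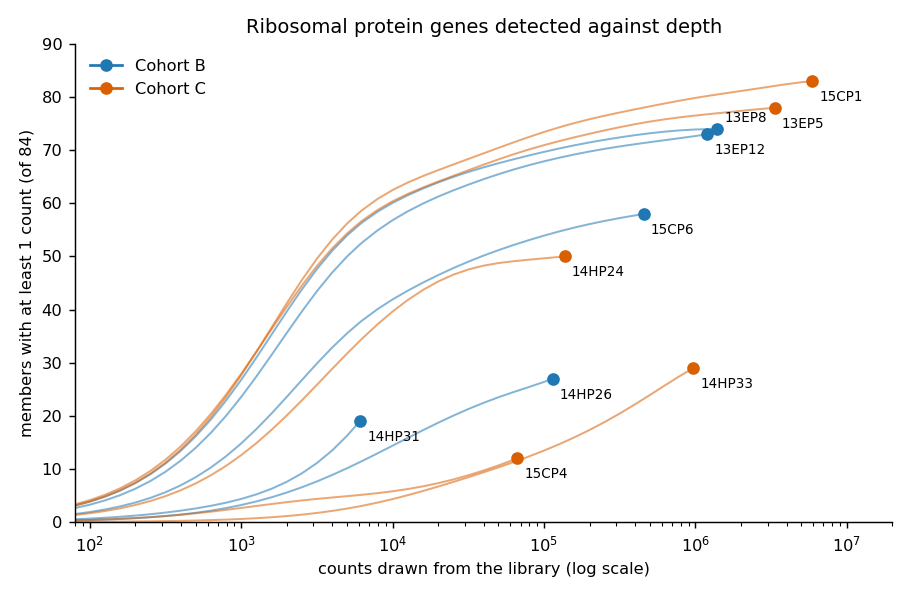
Expected number of ribosomal protein genes with at least 1 count (vertical axis, of 84) when counts are drawn without replacement from each library (horizontal axis, log scale), with the observed total and number as a point, in blue for Cohort B and orange for Cohort C. The curves of the 4 deep libraries of both cohorts run close together, while those of 14HP33 and 15CP4 lie lowest at every depth above 6076 counts at which they are drawn.

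RPS6 and RPS14 had counts in all 10 libraries. RPS6 is the small-subunit protein that the S6 kinases phosphorylate downstream of mTOR, and RPS14 is the gene tied to the anemia of the myelodysplastic syndrome with loss of part of human chromosome arm 5q. RPS6 had 3149, 4236, 31, 1 and 299 counts in Cohort B and 9492, 62, 120, 12880 and 97 in Cohort C (monkeys in the order used above). RPS14 had 752, 809, 10, 1 and 223 counts in Cohort B and 1346, 2, 89, 3620 and 1 in Cohort C. In the shallowest library of each cohort both were thus at a single count, apart from RPS6 in 15CP4. Of the 840 values, 1 per member and library, 337 were 0, and the 4 deep libraries held 97.4% of all RP counts.

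The RP counts of the 6 libraries other than the deep ones were concentrated in fewer members to differing degrees, and not in the same ones. RPS6 was first in 13EP12, 13EP8, 13EP5 and 15CP1, with 5.42% to 7.72% of the RP counts, and also in 15CP4, where its 97 of 280 RP counts made 34.6%. RPLP0, the base of the stalk through which the large subunit recruits translation factors, took 23 of the 44 RP counts (52.3%) in 14HP31. RPL35, a protein at the exit of the nascent peptide tunnel, took 106 of 438 (24.2%) in 14HP26. RPL8, a protein of the large-subunit core, was first in 14HP33 with 150 of 596 (25.2%) and in 15CP6 with 702 of 8901 (7.89%), and RPL14 was first in 14HP24 with 307 of 2377 (12.9%). The 3 leading members together made 12.4% to 17.5% of the RP counts in the 4 deep libraries, 18.1% in 15CP6, 27.0% in 14HP24, 47.0% in 14HP26, 54.9% in 14HP33, 61.4% in 14HP31 and 80.4% in 15CP4, where RPL23 (75 counts) and RPL11 (53) followed RPS6.

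The number of equally used members that would give the same concentration of counts (the inverse of the sum of squared shares) measured this unevenness. It was 38.0, 40.2, 9.42, 3.48 and 31.5 in Cohort B and 40.1, 7.40, 21.7, 46.6 and 3.99 in Cohort C. The order of the members by count was alike in the 4 deep libraries, with Spearman correlations of 0.92 to 0.94 over the 84 genes for their 6 pairs, against 0.15 to 0.78 for the other 39 pairs. These correlations run across genes of libraries that differ in depth and share a pipeline, and are descriptions. Large-subunit genes took 59.9% to 63.9% of the RP counts, paralogs left out, in the 4 deep libraries and 62.1% to 79.1% in the other 6, and the 79.1% was in 14HP31, where RPLP0 led.

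**Figure D3:**
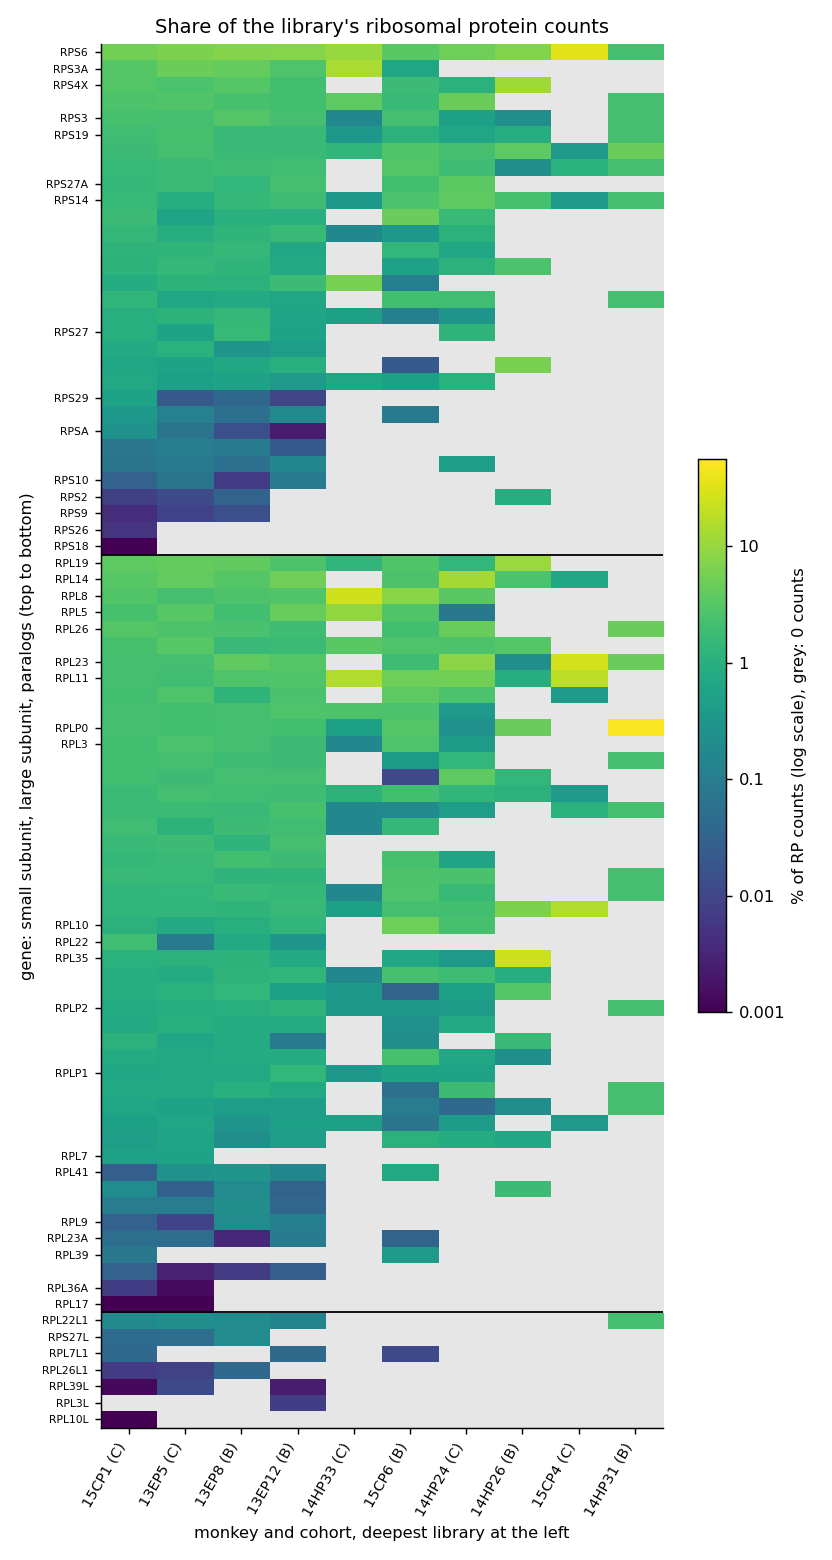
Share of each library's ribosomal protein counts on each of the 84 members (color, percent on a log scale, grey for 0 counts), with libraries ordered by total counts from the left and members grouped into small subunit, large subunit and paralogs, each by summed counts, and with members described in the text labeled. The 4 deep libraries at the left share 1 pattern, and in 15CP4 and 14HP31 at the right only 12 and 19 members are colored.

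Per unit of length, measured as FPKM (fragments per kilobase of transcript and per 1000000 mapped fragments, as deposited), the highest mean levels over the 10 libraries were those of RPS6 (5336 FPKM), RPL19 (3621), RPL26 (3127), RPL14 (2852) and RPS3A (2567). These means include the high FPKM level of 13EP5. By the median of the 4 deep libraries the order was RPS6 (5155), RPL26 (3209), RPL19 (3054), RPL23 (2945) and RPL14 (2651), with RPS3A at 2411. All of these are structural proteins of the small or the large subunit, and RPL26 is also known for binding p53 messenger RNA. The level of RPS6 was 4348, 5662, 308, 0 and 576 FPKM in Cohort B and 35484, 80.9, 423, 4648 and 1834 FPKM in Cohort C. The value of 13EP5 was 7.63-fold that of 15CP1 although RPS6 made a similar share of the counts in both, 0.284% against 0.218%. For all RP genes together, FPKM summed to 403091 in 13EP5 and 61256 in 15CP1, or 3.89% and 1.18% of the library's summed FPKM, where the count shares were 4.36% and 4.03%. The FPKM level of 13EP5 therefore stood apart on a scale on which its counts did not. Among member and library pairs, 114 had counts but an FPKM of 0, and 9 had an FPKM above 0 but no counts.

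Within the 4 deep libraries the share of the RP counts on a member varied less than 2-fold for most members. Of the 70 members (paralogs left out) with at least 100 counts summed over these libraries, 42 had shares within a factor of 2 between the highest and the lowest library, and the median ratio was 1.70. In 12 the ratio exceeded 4, in 8 of those it exceeded 10, and RPL7 and RPL39 were at 0 in at least 1 deep library. These limits were chosen after the values had been seen. The ratios over 10 belonged to RPSA (108), RPS29 (58.5), RPL23A (26.2), RPL9 (22.1), RPL22 (21.4), RPS10 (13.4), RPL12 (12.6) and RPL41 (10.8). They were not highest in the same library: RPL12 had 36 counts in 13EP12 and 2646 in 15CP1, while RPS10 and RPL23A had their highest share in 13EP12 and their lowest in 13EP8, both in Cohort B.

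RPL7, a large-subunit protein, had no counts in any library of Cohort B, and 834, 0, 0, 1220 and 0 counts in Cohort C. Both deep libraries of Cohort C were high, at 250 and 207 CPM, while 0 counts in 13EP12 and 13EP8 allow at most 2.52 and 2.15 CPM. The 3 other libraries of Cohort C were at 0 like those of Cohort B, so the cohorts overlapped at 0. Over pooled counts the level of RPL7 in Cohort C was 208-fold that of a floor of 3 counts over the 5 libraries of Cohort B. This ratio leaves out the spread between monkeys. RPL7 was the only gene in the whole table with 0 counts throughout Cohort B and at least 500 in both deep libraries of Cohort C. At 100 counts 18 genes met that description, so RPL7 stood alone only at the higher limit. No gene met either with the cohorts exchanged, in which case the deep libraries asked for counts are the smaller ones. FPKM showed the same split, with 729 in 13EP5, 188 in 15CP1 and 0 in the other 8 libraries.

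RPL39, a small protein of the peptide tunnel, had counts in 15CP1 (187) and 15CP6 (32) and in no other library. Both carry an index suffix in their labels, as does 14HP33, where RPL39 was at 0. RPS29 had 4, 22, 0, 0 and 0 counts in Cohort B and 31, 0, 0, 1362 and 0 in Cohort C, so that 15CP1 alone was high. RPL22, known for its role in the development of αβ T cells, had 125, 458, 0, 0 and 0 counts in Cohort B and 133, 0, 0, 4641 and 0 in Cohort C, again with 15CP1 high, at 787 CPM against 39.8 to 329 in the other deep libraries. RPSA, the small-subunit protein also known as the laminin receptor, had 1, 8, 0, 0 and 0 counts in Cohort B and 98, 0, 0, 628 and 0 in Cohort C, or 29.3 and 107 CPM in the deep libraries of Cohort C against 0.840 and 5.75 in those of Cohort B. Many RP genes have near-identical processed copies in primate genomes and the reads were mapped to the human genome, so the assignment of reads to single RP genes is uncertain.

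**Figure D4:**
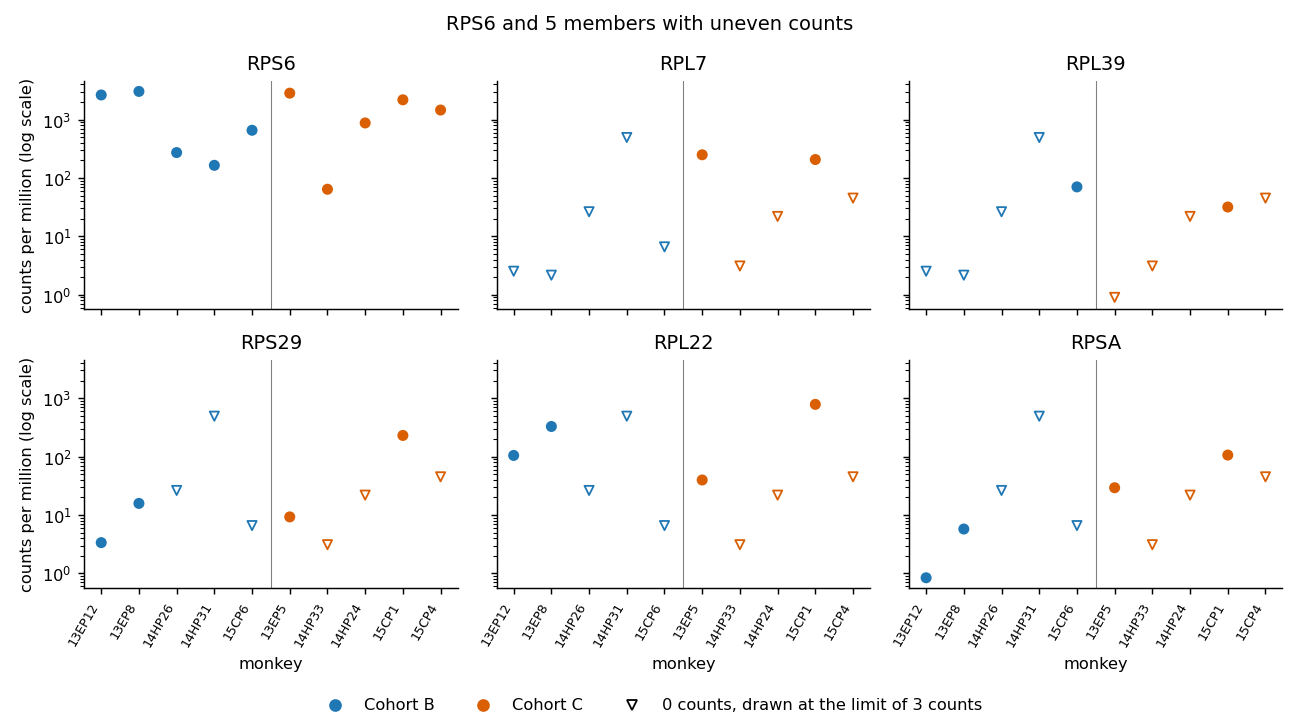
CPM of the library's own total (log scale) for RPS6 and for RPL7, RPL39, RPS29, RPL22 and RPSA in the 10 libraries, with Cohort B in blue and Cohort C in orange. Open triangles mark 0 counts and stand at the level that 3 counts would give in that library. RPL7 lies at 250 and 207 in 13EP5 and 15CP1 and at 0 elsewhere, and RPL39 is present only in 15CP6 and 15CP1.

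The comparison of Cohort C with Cohort B asked whether Tr1 cells differed with ADL infusion. edgeR's quasi-likelihood test with TMM normalization was fitted over the 14168 genes with at least 10 counts, among them 80 members, with RPS18, RPL17, RPL3L and RPL10L below that limit. At a Benjamini-Hochberg adjusted p under 0.05, 0 of the 80 members were called, as were 0 of all genes (0%). With the looser rule of a change of 1.5-fold or more at an unadjusted p under 0.01, 1 of 80 was called, RPL7, which was higher in Cohort C, against 6.43% of all genes in either direction and 1.07% higher in Cohort C. At an unadjusted p under 0.05 alone, RPL7 and RPL36A passed, 2 of 80, against 20.6% of all genes. The exact permutation test compares log2 CPM over all ways of choosing 5 of the 10 libraries. By this test 0 of 80 members had an unadjusted p under 0.05, against 0.24% of all genes. The smallest p the design allows is 0.00794. Both tests use the TMM factors, which ran from 0.0727 in 14HP33 to 4.17 in 14HP31. In the deep libraries the factors lay between 0.820 and 0.971. With its factor, 14HP33 had the highest RPL8 level of any library, 2130 CPM of the TMM library size, on 150 counts. Estimates that rest on the shallower libraries therefore depend strongly on this scaling.

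The estimates for the members lay closer together than those of the genes as a whole. Their median log2 fold change was 0.21, with quartiles at -0.19 and 0.47, where all genes had a median of 0.16 and quartiles at -1.17 and 1.59. The standard error of a member was 1.88 at the median. Of the members 56 were estimated higher and 24 lower in Cohort C with TMM factors, where of all genes 7585 were higher and 6583 lower. With library size alone the members stood at 42 and 38, and the median of all genes moved from 0.16 to -0.10. Relative to that median the members stood 0.05 higher with TMM factors and 0.14 higher with library size alone. The sign of the members' median turned without 15CP1 (-0.38), without 13EP5 (-0.33), without 14HP26 (-0.09) and without 14HP31 (-0.05), and with limma-voom (-0.18), filterByExpr (-0.09) and thinning to the shallowest library (-0.07). Of the 80 tested members 2, or 2.50%, had over 90% of their counts in a single library, against 12.4% of all genes tested. Among the 62 tested genes of the translation list described below, 0 (0%) did, and their quartiles lay at -0.02 and 1.17. The narrower spread and the low single-library share were thus not particular to the RP genes.

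**Figure D5:**
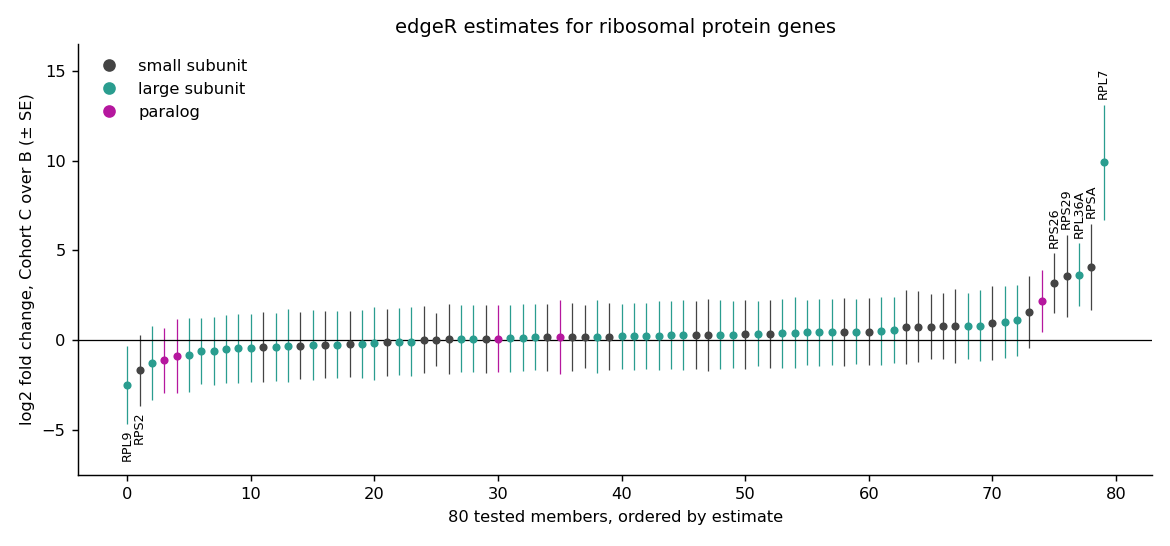
log2 fold change of Cohort C over Cohort B with its standard error from edgeR for the 80 tested members, ordered by estimate and colored by subunit. Of the 80 estimates 7 lie more than 1 SE from 0, and RPL7 stands at 9.90, an estimate that rests on 0 counts throughout Cohort B and is not a bound.

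Small-subunit and large-subunit genes gave similar medians. Of 30 tested small-subunit genes 24 were estimated higher and 6 lower, with a median of 0.30, and of 45 large-subunit genes 29 were higher and 16 lower, with a median of 0.21. No small-subunit gene and 1 large-subunit gene, RPL7, was called at the unadjusted threshold. The difference between the subunits was not tested.

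Among the members with the smallest p toward Cohort C, RPL7 had an edgeR adjusted p of 0.141 and an exact permutation p of 0.444. Its unadjusted call was lost without 13EP12 (edgeR p = 0.01001) and without 13EP8 (edgeR p = 0.0103), the deep libraries of Cohort B. DESeq2 (adjusted p = 2.76e-13) and edgeR on the 4 deep libraries alone (adjusted p = 0.0251) both called it, while edgeR's exact test and limma-voom gave adjusted p of 1 and 0.9996. DESeq2 put the log2 fold change of RPL7 at 22.7 (SE 2.70), against 9.90 in the main fit. With 0 counts throughout Cohort B, neither value measures the size of a difference. RPL36A had 19 counts in all, 2 in 13EP5 and 17 in 15CP1, and an adjusted p of 0.204 (edgeR). Its pooled level in Cohort C was 1.92-fold the floor of 3 counts over Cohort B. RPS26, one of the genes mutated in Diamond-Blackfan anemia, had 13 counts, all in 15CP1, with an edgeR adjusted p of 0.251. Its pooled level in Cohort C was 1.31-fold the same floor. Neither ratio is a lower bound, since counting error in Cohort C and the spread between monkeys are left out. RPSA followed with a log2 fold change of 4.09 (SE 2.40, edgeR adjusted p = 0.352) and RPS29 with 3.58 (SE 2.30, edgeR adjusted p = 0.445). Without 15CP1 the estimate of RPSA was 2.13 and that of RPS29 turned to -0.65, and without 13EP8 they were 6.10 and 5.37.

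Toward Cohort B, no member passed any of these thresholds. RPL9 had 46, 111, 0, 0 and 0 counts in Cohort B and 13, 0, 0, 73 and 0 in Cohort C, with a log2 fold change of -2.52 (SE 2.17, edgeR adjusted p = 0.720). Its deep libraries overlapped in counts, though not in counts relative to all RP counts, where 13EP12 and 13EP8 held 0.113% and 0.198% against 0.00892% and 0.0307% in 13EP5 and 15CP1. RPS2 was counted in 13EP8 (18), 14HP26 (4), 13EP5 (18) and 15CP1 (19), with a log2 fold change of -1.67 (SE 1.97, edgeR adjusted p = 0.921), which was -0.14 without 13EP8 and -0.73 without 14HP26. RPL41, the smallest of the ribosomal proteins, had 63, 168, 0, 0 and 67 counts in Cohort B and 396, 0, 0, 66 and 0 in Cohort C, so that 15CP1, the deepest library, was low for its depth. Its log2 fold change was -1.25 (SE 2.06), and -4.12 without 13EP5. That of RPL9 was -1.45 without 13EP8 and -4.04 without 15CP1. The paralogs RPL26L1 and RPS27L completed this list, at -1.13 (SE 1.80) and -0.89 (SE 2.06), and both turned to positive values without 13EP8.

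Of the members chosen for set roles, all but RPSA (4.09, SE 2.40, given above) had edgeR estimates smaller than their standard errors. RPLP0 had 822, 1198, 20, 23 and 264 counts in Cohort B and 3041, 3, 6, 5310 and 0 in Cohort C. Its mean log2(CPM + 1), with CPM of the TMM library size, was 9.04 ± 1.24 (SD, n = 5) in Cohort B and 6.12 ± 4.15 (SD, n = 5) in Cohort C. The difference was -2.93 with an exact permutation p of 0.167, the smallest of all members, and the cohorts overlapped. The edgeR estimate, fitted to the counts rather than averaged on the log scale, was -0.60 (SE 1.85). Its stalk partners RPLP1 and RPLP2 were at -0.27 (SE 1.93) and -0.08 (SE 1.92). RPL5 and RPL11, which bind the p53 regulator MDM2 when ribosome assembly is disturbed, were at 0.17 (SE 1.83) and 0.46 (SE 1.82). RPS19, the gene most often mutated in Diamond-Blackfan anemia, was at 0.48 (SE 1.87), and RPS14 at -0.12 (SE 1.87). RPS6 was at 0.19 (SE 1.76), and RPS27A, which is made as a fusion with ubiquitin, at 0.17 (SE 1.87).

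The genes of this group not yet given were estimated at values as small, apart from RPL22. RPS3, which lines the entry of the messenger RNA channel, was at -0.21 (SE 1.86), and the X-linked RPS4X at 0.03 (SE 1.84). RPL10, which joins the large subunit late in its maturation, was at -0.59 (SE 1.88), and RPL3, near the peptidyl transferase center, at 0.08 (SE 1.86). RPL22 was at 1.11 (SE 1.96) and RPL23A, at the exit of the peptide tunnel, at 0.20 (SE 2.02), the latter with at most 124 counts in a library. With standard errors near 1.9 on the log2 scale, a difference of several-fold in any of these genes was not detectable at this depth and spread.

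Most paralogs had fewer counts than the genes they resemble, with exceptions for RPL22L1, RPL7L1 and RPL39L in some libraries. RPL22L1 had 54, 110, 0, 1 and 0 counts in Cohort B and 334, 0, 0, 402 and 0 in Cohort C, more than RPL22 itself in 13EP5 (334 against 133) and fewer in the other deep libraries. RPS27L, a target of p53, had 110 counts in 13EP8, 72 in 13EP5 and 107 in 15CP1 and none elsewhere, where RPS27 had 862, 846 and 2306. RPL7L1 had 18 counts in 13EP12, 1 in 15CP6 and 93 in 15CP1, and so was counted in 2 libraries of Cohort B in which RPL7 was not. RPL26L1 had 23 counts in 13EP8, 12 in 13EP5 and 16 in 15CP1, while RPL26 had 777 to 7099 in the 4 deep libraries. RPL39L had 21 counts in all, 17 of them in 13EP5, where RPL39 was at 0. RPL3L, a protein of heart and skeletal muscle, had 3 counts, all in 13EP12, and RPL10L, a protein of the testis, 2, both in 15CP1, against 10669 counts of RPL3 and 5488 of RPL10 over the 10 libraries.

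Some genes of the ordinary ribosome were as rare as the paralogs. Over the 4 deep libraries, RPS18 had 1 count, RPL17 3, RPS26 13, RPL36A 19, RPS9 31 and RPS2 55, where RPS6 had 29757. These 6 genes were low in the deep libraries of both cohorts, with at most 19 counts in any library. RPL17 and RPS10 had FPKM values above 0 in 6 and 5 libraries, with RPS10 at 3930 FPKM and 104 counts in 13EP5, so the 2 deposited tables differ for them. How reads with several matches were counted is not given in the sources used here, and its part in these counts was not tested.

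On FPKM values, limma on log2(FPKM + 1), which understates changes of low genes, called 0 of the 78 members whose FPKM averaged 1 or more, by the rule of an adjusted p below 0.05 with a change over 1.4-fold, against 0 of 10307 genes (0%). At an unadjusted p under 0.05 it passed 0 members, against 0.281% of all genes. The estimates were positive for 53 and negative for 25 members, with a median of 0.50, below the median of 0.74 of all genes tested. The high FPKM level of 13EP5, given above, enters each of these values.

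The other genes of translation were described in the same way. This list held 64 genes in the table, of which 62 were tested, 46 estimated higher and 16 lower in Cohort C, with a median log2 fold change of 0.59. Of all genes tested 7585 were higher and 6583 lower, with a median of 0.16, and the difference was not tested. None was called at an edgeR adjusted p under 0.05 or at the unadjusted threshold of 0.01 with 1.5-fold, and 3 passed an unadjusted p under 0.05 alone, against 20.6% of all genes. BYSL, a factor of small-subunit maturation, had 23 counts in 13EP5, 102 in 15CP1 and 0 elsewhere. EEF1D, a subunit of elongation factor 1, had 7 and 10 counts in the same 2 libraries and 0 elsewhere. These 2 genes, with edgeR adjusted p of 0.141 and 0.203, had the smallest p toward Cohort C. Both were counted in the same libraries as RPL7, but on far fewer counts than its 834 and 1220. Those libraries are deeper than any of Cohort B, and whether the 0 counts there follow from depth was not tested. Toward Cohort B the smallest p belonged to NOP10, a protein of the particles that modify ribosomal RNA, and to the initiation factor EIF1AX, at -2.40 (SE 2.16) and -2.26 (SE 2.14). The RP genes outside the symbol pattern included FAU, at 0.33 (SE 1.89), and GNB2L1, at 0.20 (SE 1.86).

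The translation genes filled the libraries much as the RP genes did. They took 2.69%, 2.90%, 0.370%, 0.132% and 1.26% of the counts in Cohort B and 3.73%, 0.0795%, 1.35%, 3.08% and 1.11% in Cohort C. RP counts were 1.17 to 1.39 times those of the translation genes in the 4 deep libraries. In the other 6 the ratio ran from 0.379 in 15CP4, where 160 counts of EEF1A1 exceeded those of any member, to 5.50 in 14HP31, where 44 RP counts stood against 8. TPT1, another TOP messenger RNA, was counted in all 10 libraries, with 4 counts in 14HP31 and 30789 in 15CP1.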

How the data were processed

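RNA-seq of 10 sorted Tr1 cell libraries, 1 per monkey, was compared between Cohort B (n = 5) and Cohort C (n = 5), grouped by their labels. The libraries were dual-indexed Clontech Pico stranded libraries of total RNA, read as 50 bp pairs. The authors aligned the reads to hg38, a human genome build, by HISAT2 2.0.2 and deposited raw counts per gene symbol; the counting options are not given in the sources used here. The authors also deposited FPKM values, made with Cuffdiff 2.2.1.

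From the counts, edgeR 4.0.16 (R 4.3.3) was fitted to cohort alone over the 14168 genes with at least 10 summed counts, with Benjamini-Hochberg adjustment over all of them. Each SE is the log2 fold change over the root of the test statistic. limma 3.58.1 tested log2(FPKM + 1), and exact permutation (two-sided) log2(CPM + 1), with CPM as counts per 1000000 of the TMM library size. The cohorts were not tested for RP shares or numbers detected, since members and lists were chosen with earlier results of these data known. Totals ran from 6076 to 5895609 counts, and Wilson intervals and floors of 3 counts cover counting error only. The fits, the permutation test and the expected numbers detected were tested on simulated data.

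Alternatives covered edgeR's exact test, DESeq2 1.42.0, limma-voom, other scalings and filters, a replicate block, an index suffix as a covariate, thinning, and leaving out libraries. The limit of 1000000 counts for deep libraries, the draws down to 44 RP counts and the lists of uneven and of rare members were chosen after seeing the data. Genes described were the 5 highest by mean FPKM, the 5 with the smallest p in each direction, genes of set roles, the paralogs with their partners, the 3 leading members of each library and members counted in every library; RPL39 and the rare or uneven members outside these were chosen after their values were seen. Coordinates and sequences were not used here, and results for some genes that the rule covers are not reported here.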

Additional observations from a re-analysis of the deposited data

Results flagged for a closer look

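In each cohort of 5 libraries, the highest or lowest value was compared with its neighbor by Dixon's test at the 95% limit of 0.71, for the RP share, the number detected, the large-subunit share and the share of RP counts of 14 genes described above. Of 34 groups examined, 15 passed. Dixon's test flags about 1 in 20 groups by chance in normal data, but this is no reference here, since most of the genes were described for their small p or uneven counts, and in 13 of the 15 groups 3 or 4 of the 5 libraries were at 0. The flags are therefore given as values.

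RPLP0 and RPS6 stood out by a high share in a shallow library. RPLP0 made 52.3% of the RP counts of 14HP31 (Cohort B), next to 4.57% in the following library, and RPS6 made 34.6% of those of 15CP4 (Cohort C), next to 10.4%. These rest on 23 of 44 and 97 of 280 RP counts. RPS2 made 0.913% of the RP counts of 14HP26 (Cohort B), on 4 counts.

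In Cohort C the deepest library, 15CP1, stood apart with RPL22 at 1.95% of its RP counts, RPS29 at 0.573%, RPSA at 0.264%, RPL39 at 0.0787%, RPL36A at 0.00715% and RPS26 at 0.00547%. RPL41 was instead highest in 13EP5, at 0.272%, against 0.0278% in 15CP1.

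In Cohort B the library 13EP8 stood apart with RPS27L at 0.196%, RPL26L1 at 0.0409%, RPS29 at 0.0391% and RPSA at 0.0142% of its RP counts, and 15CP6 with RPL39 at 0.360%. The causes of these values were not tested.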

How the results depend on the processing

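With edgeR and TMM factors, 0 members were called at an adjusted p under 0.05, and this held under 21 of 23 alternatives. DESeq2 called 1, RPL7 (2 of all genes), and edgeR on the 4 libraries over 1000000 counts called 1, again RPL7, as the single gene called of 13274. At the unadjusted threshold 1 member, RPL7, was called, and 0 with edgeR's exact test, limma-voom, filterByExpr, thinning to 6076 counts and the replicate block; under filterByExpr and thinning RPL7 was not among the genes tested. Leaving out each library in turn gave 0 adjusted calls and 0 to 1 unadjusted calls, with 0 without 13EP12 and without 13EP8. Over all genes the unadjusted count was 911, but 88 with edgeR's exact test, 22 with DESeq2, 67 with limma-voom, 563 with DESeq2 size factors, 10 with filterByExpr, 81 when thinned, 98 with the index suffix as a covariate, 326 without libraries under 100000 counts, 117 in the 4 deep libraries and 76 to 698 with 1 library left out. The members' median log2 fold change, 0.21, ran from -0.18 (limma-voom) to 0.38 (DESeq2 size factors) over the other settings and from -0.38 to 0.70 with 1 library left out, always by less than the median standard error of a member. FPKM calls stayed at 0 under all 13 alternatives, the replicate block and leave-one-out included. The difference of cohort medians (Cohort C minus Cohort B) in RP share, -0.22 percentage points, ran from -0.95 to 0.93 and that in members detected, -8, from -18.5 to 7.5, both within 1 SD between libraries.

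Same-numbered libraries of the 2 cohorts come from different monkeys. Their deviations from the cohort means correlated at 0.38, -0.40, -0.003, -0.40 and -0.02. Since the libraries differ widely in depth, these correlations cannot show whether same-numbered libraries were processed together. With the replicate number as a block, 0 members passed either threshold, the count over all genes at the unadjusted threshold fell from 911 to 0 and the members' median was 0.08. Upper quartile factors could not be used, since the upper quartile of the counts is 0 in some libraries. The analysis of the deep libraries alone was chosen after seeing the data and has 2 monkeys per cohort. In the 6 other libraries 1 to 53 members exceeded 3 counts, which limits their values, and not by total depth alone, since 14HP33 had 968423 counts and 13 such members.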
